A study of Rattus norvegicus with 16 samples.

Results

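Explants of the modiolus and of the stria vascularis of newborn rats (Rattus norvegicus), kept in culture for 24 h, were compared on Affymetrix Rat Neurobiology U34 arrays. All cultured arrays of both regions were taken, 4 of modiolus and 4 of stria vascularis, which is 8 of the 16 arrays of the series. Each array held total RNA pooled from 12 cochleae. In each region 2 arrays came from normoxic cultures (normoxia) and 2 from cultures that passed through hypoxia for 5 h, from hour 3 of culture and with 10 to 20 mmHg of oxygen in the medium, followed by 16 h of normoxic recovery. All 8 pools shared the dissection, the culture medium with fetal calf serum, insulin, transferrin and added glucose, and the time of harvest, so that both sides of the comparison were cultured tissue. Strain and sex were not given in the sources used here, and native tissue was left out.

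The modiolus is the bony core of the cochlea. It houses the spiral ganglion, whose neurons carry the signals of hair cells to the brainstem, together with their satellite cells and Schwann cells, and with fibroblasts, bone and vessels. The stria vascularis is a vascularised epithelium of the lateral wall that secretes the potassium-rich endolymph. Its marginal cells take up potassium with Na,K-ATPase and a cotransporter and release it through a channel made of Kcnq1 and Kcne1, its intermediate cells are related to melanocytes, and its basal cells seal the tissue. In newborn rats the stria is still immature. An array reads whole tissue, so that fewer cells of a type and less RNA per cell cannot be told apart in any result that follows.

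The deposited values are signals on a linear scale, with each array scaled to the same trimmed mean. After 59 control probe sets were set aside, 1263 probe sets remained. Those with 1 gene symbol stood for 720 genes, each read by its brightest probe set. Differences are given as modiolus minus stria vascularis on the scale of log2(signal + 16), with the standard error (SE) of a limma model that held region, oxygen condition and repeat, and with p-values adjusted over all 1263 probe sets. A gene counted as above background on an array where its signal passed the 95th percentile of that array's 23 bacterial, yeast and mouse control probe sets, which lay at 493 to 706 in modiolus and 313 to 596 in stria vascularis. The median signal of an array was 728 to 939 in modiolus and 555 to 662 in stria vascularis. GAPDH 3′ to 5′ ratios, a sign of RNA integrity, were 1.07 to 1.23 in modiolus and 1.20 to 1.39 in stria vascularis. Those of beta-actin were higher, at 1.73 to 2.78 in modiolus and 2.01 to 2.32 in stria vascularis, with the highest in the first hypoxic modiolus array. The first repeats of both regions were scanned on the same day, whereas the second repeats of modiolus and of stria vascularis were scanned on different days. Scan day and region therefore cannot be told apart in repeat 2, and the difference within repeat 1 is given for some of the main results.

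Region was the main axis of variation. Arrays of different regions correlated at r = 0.844 to 0.877 over 16 pairs, against 0.914 to 0.956 for the 8 pairs of a normoxic and a hypoxic array of one region and 0.918 to 0.946 for the 4 pairs of repeats. Of the sum of squares over all probe sets, region held 49.6%, the repeat 11.1%, oxygen 8.73%, the region by oxygen term 8.49% and the remainder 22.1%. These correlations and shares are descriptions across probe sets, which are not independent replicates.

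Of the 720 genes, 187 passed at an adjusted p of 0.05, which is 26%. Of these, 133 (18.5%) were higher in cultured modiolus and 54 (7.5%) higher in cultured stria vascularis. The split depends on how the arrays are scaled, because the median difference of all genes was 0.42, a 1.34-fold shift toward modiolus, and it was 0.49 for the 123 genes that were not above background in either region. With each array centred on its median, 38 genes (5.28%) were higher in modiolus and 84 (11.7%) higher in stria vascularis. Centring removed 95 of the modiolus calls and 0 of the stria calls. Of the 1263 probe sets 321 passed (25.4%), 217 (17.2%) higher in modiolus and 104 (8.23%) higher in stria vascularis. The modiolus count fell to 127 without the second hypoxic modiolus array and to 111 without the second hypoxic stria array, which also took the total to 192. Within repeat 1 alone, with 4 arrays, 19 probe sets were higher in modiolus and 32 in stria vascularis. Of all probe set calls, 67.6% were higher in modiolus with the values as deposited, 48.8% after quantile normalization and 29.0% after centring. Differences are therefore to be read against 0.42 rather than 0, and it is said below where a call was lost by centring. Counts of the lists below are to be read beside the 18.5% and 7.5% of all genes, and after centring beside 5.28% and 11.7%.

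Among the called genes, 23 differed more than 4-fold toward modiolus and 18 toward stria vascularis. The 12 largest on each side, taken from genes above background in all 4 arrays of the higher region, were separated between the regions without overlap in all 24 cases, where 21.2% of all genes did not overlap with modiolus higher and 7.36% with stria vascularis higher. This separation follows in part from the choice by size. Each of the 24 kept its call after centring. Of the 133 genes higher in modiolus, 21 were not above background in any stria array, and of the 54 genes higher in stria vascularis, 9 were not above background in any modiolus array. For such genes a fold is given as "at least", with the dim signals raised to the background percentile.

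**Figure D1:**
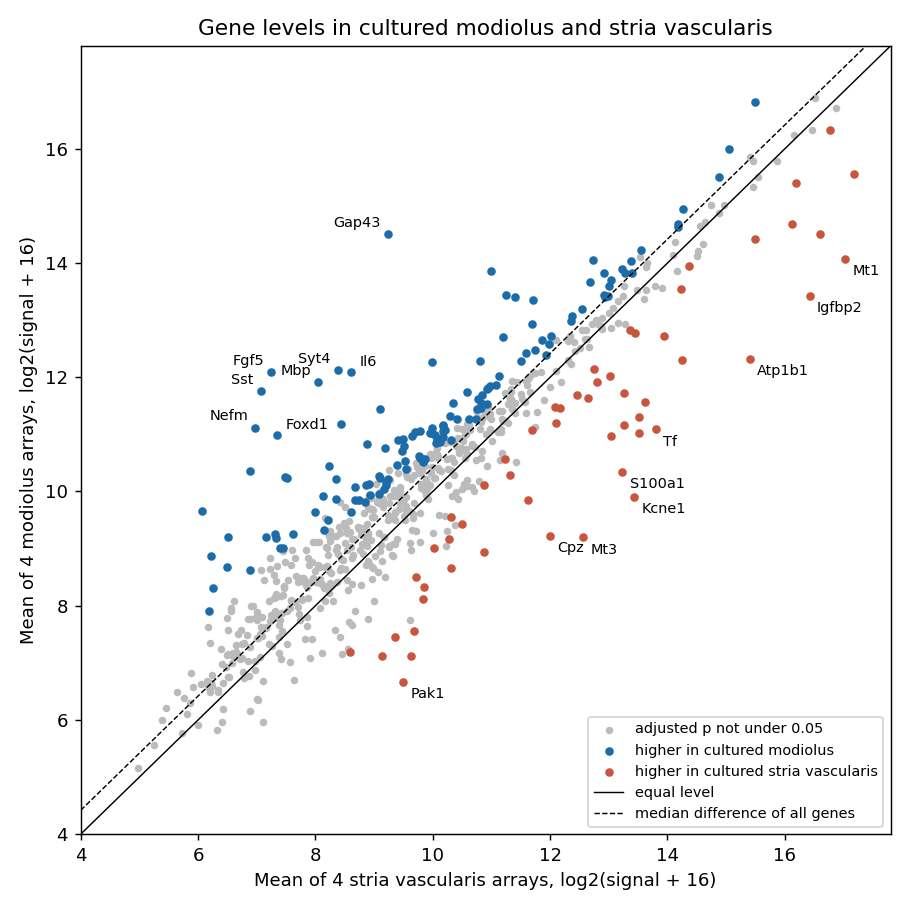
Mean of log2(signal + 16) over the 4 modiolus arrays (vertical axis) against the 4 stria vascularis arrays (horizontal axis) for 720 genes, with the 133 genes called higher in modiolus in blue and the 54 called higher in stria vascularis in red. The dashed line marks the median difference of 0.42, and Gap43 at one side and Kcne1, Mt3 and Atp1b1 at the other lie far from it. After centring on the array median the calls were 38 and 84.

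Genes of potassium secretion were among the leading genes of stria vascularis. Kcne1, the accessory subunit of the marginal cell potassium channel, read 13685 and 9837 in normoxic and 14980 and 7314 in hypoxic stria vascularis. In modiolus it read 942 and 834 in normoxia and 1525 and 653 in hypoxia. The lowest stria array thus lay far above the highest modiolus array, and the difference was -3.53 ± 0.20 (SE, 4 arrays per region), an 11.5-fold excess in stria vascularis (adjusted p = 1.3e-06), with -3.56 within repeat 1. A second, dimmer probe set of Kcne1 differed by -5.29 ± 0.30 and was not above background in modiolus, so that its excess was at least 7.78-fold. The difference between these probe sets leaves the size of the Kcne1 excess uncertain, not its direction.

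Atp1b1, a beta subunit of Na,K-ATPase, read 49133 and 36914 in normoxic and 54601 and 36034 in hypoxic stria vascularis, against 5997 and 4784 in normoxic and 6553 and 3592 in hypoxic modiolus. The regions were far apart in both conditions (-3.09 ± 0.13, 8.5-fold higher in stria vascularis, adjusted p = 4.6e-07). Atp1b2, the other beta subunit of this list, was also higher in stria vascularis, where it read 4933 and 10399 in normoxia and 7642 and 12829 in hypoxia, against 1845 to 2178 in modiolus (-2.07 ± 0.20, adjusted p = 6.6e-05). The stria values of Atp1b2 were higher in both second repeats than in the first, and the difference was -1.60 within repeat 1 and -2.54 within repeat 2. Kcnq1, the pore-forming partner of Kcne1, was read by a probe set that did not pass background on any of the 8 arrays (97.4 to 303 in stria vascularis and 107 to 130 in modiolus), so that nothing can be said of its level. Of the marginal cell list, 4 of 10 genes were measured, 3 of them were higher in stria vascularis and 0 in modiolus, and their median difference was -2.58 beside 0.42 for all genes. The summed signal of the list was 56480 to 77321 in stria vascularis and 6476 to 10380 in modiolus. The other cells of the stria were hardly covered, with 2 of 10 intermediate cell genes (Kcnj10 and Kit) and 1 of 11 basal cell genes (Gja1) measured. Kcnj10, the intermediate cell potassium channel behind the endocochlear potential, was at 0.79 ± 0.33 (adjusted p = 0.11).

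Among the other 38 potassium channel genes measured, 2 were higher in stria vascularis and 4 in modiolus, no larger shares than the 7.5% and 18.5% of all genes. After centring there were 2 on each side. Kcnk1, a background leak channel, read 2750 to 3332 in stria vascularis and 806 to 1053 in modiolus (-1.76 ± 0.18, 3.38-fold, adjusted p = 7.4e-05), and the modifier subunit Kcns3 followed at -1.07 ± 0.24 (adjusted p = 0.011). Toward modiolus stood Kcnn3, a calcium-activated small-conductance channel, at 2.64 ± 0.42 (at least 1.10-fold) and the inward rectifier Kcnj1 at 1.34 ± 0.26 (adjusted p = 0.0053). Kcnn3 passed background on 1 modiolus array and on no stria array. Of the 10 measured pumps and exchangers, 2 were higher on each side, the stria pair being Atp1b1 and Atp1b2. The modiolus pair, the calcium pumps Atp2b2 and Atp2a2, lost their calls by centring, and for Atp2b2 another probe set was called in the opposite direction.

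The 3 metallothionein genes measured were higher in stria vascularis. These are small cysteine-rich proteins that bind zinc and copper. Genes of the family such as Mt1 respond to metals through short promoter elements bound by the transcription factor Mtf1. A response to metals was not tested here for any of the 3 genes. Mt1 read 124402 and 111557 in normoxic and 180745 and 128786 in hypoxic stria vascularis, against 17320 and 18745 in normoxic and 15480 and 17141 in hypoxic modiolus. The modiolus arrays lay close together and every stria array was far above them (-2.97 ± 0.17, 7.82-fold, adjusted p = 1.3e-06, and -3.19 within repeat 1). Mt2A was high in both tissues, at 136570 to 168918 in stria vascularis and 45142 to 53609 in modiolus, without overlap (-1.61 ± 0.14, 3.06-fold, adjusted p = 2.9e-05). Mt3, a form known from neurons and glia of the brain, read 7401 and 6222 in normoxic and 6342 and 4545 in hypoxic stria vascularis, against 624 and 462 in normoxic and 1174 and 309 in hypoxic modiolus. It passed background on 1 of the 4 modiolus arrays, so that its 10.3-fold excess (-3.37 ± 0.28, adjusted p = 1.9e-05, and -2.98 within repeat 1) rests on a dim denominator. Mt2A falls outside the rule for named genes and was added after its values were seen, to complete the family. Mt1 and Mt2A are close relatives, and whether their probe sets share targets was not tested.

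The promoters of these 3 genes are shown because the genes differed in the same direction and lie within a short stretch of rat chromosome 19. The sequences are the 250 bases before each annotated start from RefSeq, build GRCr8, minus strand, at chr19:10832976-10833225 for Mt1, chr19:10838709-10838958 for Mt2A and chr19:10856081-10856330 for Mt3, written 5′ to 3′. Capitals mark matches on either strand to TGCACNC or TGCGCNC, the core of the metal response element. The motifs differ in 1 base, and no matches overlapped in these windows.
Mt1: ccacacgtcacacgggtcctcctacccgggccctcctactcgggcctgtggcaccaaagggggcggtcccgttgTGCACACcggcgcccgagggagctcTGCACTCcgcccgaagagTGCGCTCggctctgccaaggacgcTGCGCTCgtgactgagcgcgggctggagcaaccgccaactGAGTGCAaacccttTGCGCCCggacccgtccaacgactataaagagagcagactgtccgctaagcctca
Mt2A: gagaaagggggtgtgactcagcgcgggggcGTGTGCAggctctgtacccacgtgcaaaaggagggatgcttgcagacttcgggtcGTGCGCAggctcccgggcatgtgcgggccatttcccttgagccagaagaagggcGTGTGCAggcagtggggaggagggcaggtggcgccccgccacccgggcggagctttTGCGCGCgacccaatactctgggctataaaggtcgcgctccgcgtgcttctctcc
Mt3: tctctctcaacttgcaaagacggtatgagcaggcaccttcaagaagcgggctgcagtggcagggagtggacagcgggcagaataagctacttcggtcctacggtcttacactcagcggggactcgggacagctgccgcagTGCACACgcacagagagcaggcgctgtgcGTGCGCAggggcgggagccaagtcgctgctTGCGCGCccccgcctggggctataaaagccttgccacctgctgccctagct
Mt1 held 6 matches, lying 176 to 55 bases before the start, Mt2A held 4 at 220 to 55 bases and Mt3 held 3 at 110 to 51 bases. Of 33469 promoter windows of this length, 20.6% held at least 1 match, 1.17% at least 3, 0.266% at least 4 and 0.0269% at least 6. Distances are counted from the first base of a match. A match is a run of letters and no measured binding site.

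The rest of the stress, antioxidant and hypoxia list moved apart. Of its 16 measured genes, 5 were higher in stria vascularis and 3 in modiolus, and their median difference was -0.13. After centring 8 were higher in stria vascularis and 0 in modiolus, beside 11.7% and 5.28% of all genes. Beside the metallothioneins, the stria genes as deposited were Slc2a1, the glucose transporter of barrier endothelium, and Tfrc, the transferrin receptor, both named after their values were seen. Slc2a1 read 60041 to 88367 in stria vascularis and 15937 to 47158 in modiolus (-1.42 ± 0.23, adjusted p = 0.002), and Tfrc was at -0.66 ± 0.21 (adjusted p = 0.045). The modiolus genes included the small heat shock protein Hspb1 (0.65 ± 0.19) and the extracellular superoxide dismutase Sod3 (0.54 ± 0.14), and both calls were lost by centring. The heme-degrading enzyme Hmox1 was at -0.12 ± 0.15 (adjusted p = 0.56) as deposited and at -0.55 (adjusted p = 0.038) after centring.

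Several secreted and calcium-binding proteins belonged to the leading genes of stria vascularis. Igfbp2, which binds insulin-like growth factors, read 74736 and 74069 in normoxic and 95758 and 111832 in hypoxic stria vascularis, against 7720 to 15623 in modiolus (-3.00 ± 0.19, 7.97-fold, adjusted p = 2.3e-06). The growth factor itself, Igf1, was higher there too at -1.08 ± 0.14 (2.12-fold, adjusted p = 0.00032), a gene chosen after its values were seen. Transferrin, Tf, the iron carrier that was also a component of the culture medium as a protein, read 12130 to 16243 in stria vascularis and 1271 to 2859 in modiolus (-2.71 ± 0.24, 6.56-fold, adjusted p = 2.9e-05). S100a1, a calcium-binding protein, read 7945 to 10561 against 1195 to 1488 (-2.89 ± 0.15, 7.39-fold), and Enpp2, the enzyme autotaxin that makes lysophosphatidic acid, read 10990 to 12666 against 1903 to 2311 (-2.50 ± 0.12, 5.66-fold). Other probe sets of Tf (-3.63 and -4.79) and of S100a1 (-4.15) differed more. In each of these genes the regions were separated by a wide gap, and the differences within repeat 1 were -3.33 for Igfbp2, -2.21 for Tf, -2.70 for S100a1 and -2.44 for Enpp2.

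Other leading stria genes were closer to background in modiolus. Cpz, a carboxypeptidase of the extracellular matrix, read 3628 to 4381 in stria vascularis and 376 to 1177 in modiolus (-2.76 ± 0.27), where it passed background on 1 array. The kinase Pak1 and the neural adhesion protein Lsamp were not above background in modiolus, so that their differences of -2.84 ± 0.56 and -2.50 ± 0.47 amount to at least 1.22-fold and 1.32-fold. Lsamp varied widely in stria vascularis, from 335 in the second hypoxic array to 2029 in the first. Within repeats 1 and 2 the differences were -2.22 and -3.30 for Cpz, -1.62 and -4.05 for Pak1, and -3.19 and -1.81 for Lsamp. Neuronatin, Nnat, an imprinted membrane protein of developing neurons and endocrine cells, read 5188 and 10969 in normoxic and 13096 and 25380 in hypoxic stria vascularis, against 2060 to 3132 in modiolus (-2.21 ± 0.32, adjusted p = 0.001).

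C3 was the called gene of the thinly covered macrophage list, and 2 of the 5 measured genes of endothelium and pericytes were called, both higher in stria vascularis. C3, the central complement protein, read 17041 to 22361 in stria vascularis and 4059 to 7105 in modiolus (-1.95 ± 0.16, 3.85-fold, adjusted p = 1.9e-05). The called endothelial genes were the adhesion molecules Icam1 (-0.68 ± 0.13) and Vcam1 (-0.61 ± 0.18). The other 3 genes of that list, Edn1 (0.60 ± 0.35), Nos3 (0.62 ± 0.37) and Pdgfrb (0.75 ± 0.26), lay toward modiolus without passing, and the median of the list was 0.60. Also higher in stria vascularis was the membrane-bound chemokine Cx3cl1 (-0.62 ± 0.19, adjusted p = 0.04), whose regions touched at 2439 to 2445 in the normoxic first repeats. The 3 other probe sets of Cx3cl1 differed by -1.46 to -1.93. The calls of Vcam1 and Cx3cl1 were each lost when any of 6 single arrays was left out, with adjusted p of up to 0.11 and 0.13. Of the 20 chemokines and cytokines measured, 6 were higher in modiolus and 1 in stria vascularis, beside 18.5% and 7.5% of all genes. Centring left 1 on each side. Markers of macrophages were thinly covered, with 3 of 17 genes measured, C3, B2m and Itgam. Itgam, an integrin of macrophages and neutrophils, passed background on no array of either region. The median difference of that list was 0.33, on the modiolus side, and -0.10 after centring. At an unadjusted p under 0.05 it had 1 gene on each side.

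**Figure D2:**
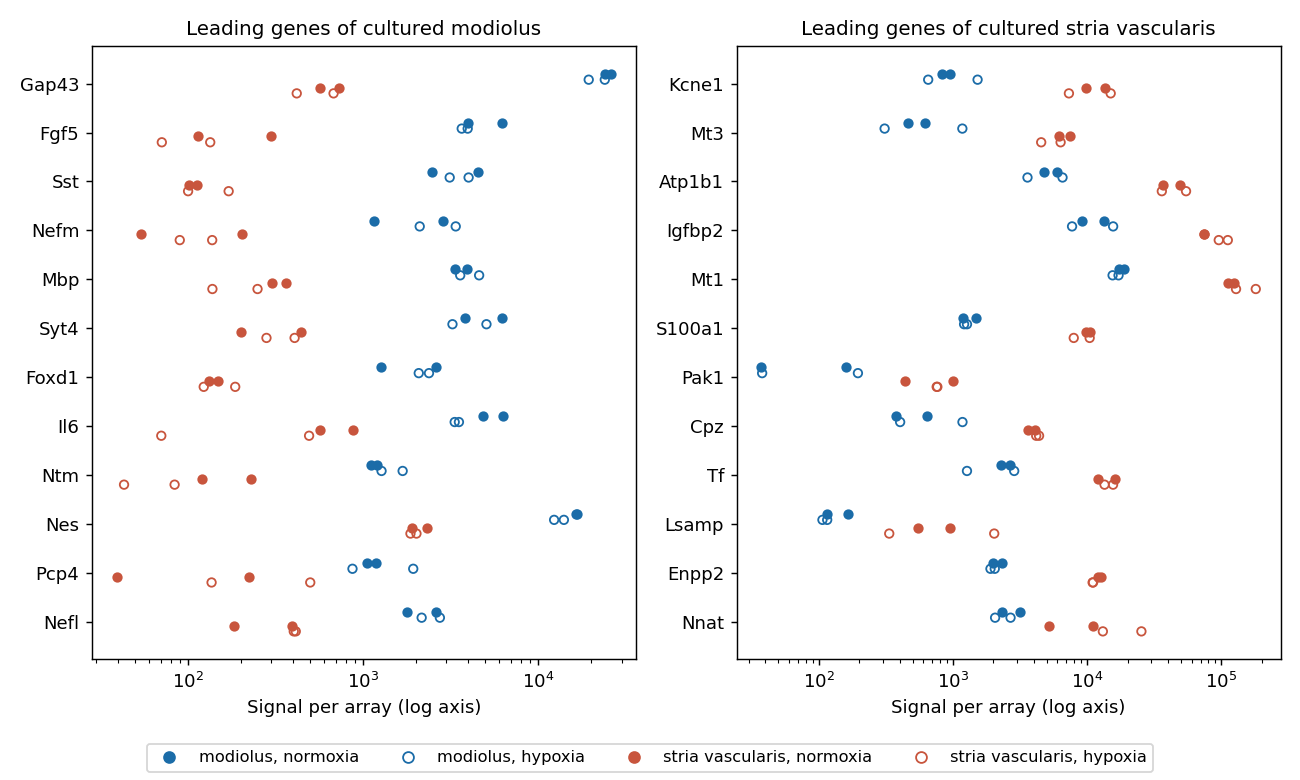
Signal on each array (log axis) for the 12 leading genes of modiolus (left) and of stria vascularis (right), with modiolus in blue, stria vascularis in red, normoxia filled and hypoxia open. In each of the 24 genes the 4 arrays of one region lie above all 4 of the other, and the spread within a region is widest where the signal is low, as for Pak1 and Ntm.

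In modiolus the highest difference belonged to Gap43, a growth cone protein of extending axons that Schwann cells also make. It read 26143 and 24195 in normoxic and 24074 and 19487 in hypoxic modiolus, against 566 and 728 in normoxic and 680 and 419 in hypoxic stria vascularis. The difference was 5.28 ± 0.18, a 38.8-fold excess in modiolus (adjusted p = 1.3e-07), with 5.30 within repeat 1 and 5.26 within repeat 2. All 8 signals of Gap43 passed background, so that this fold is measured on both sides.

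Of the neurofilaments, the structural filaments of axons, Nefm and Nefl were called toward modiolus as deposited, and Nefh was not called. Nefm, the medium subunit, read 2852 and 1157 in normoxic and 3389 and 2110 in hypoxic modiolus, and 54.1 to 205 in stria vascularis, where it was not above background. Its difference of 4.14 ± 0.48 (adjusted p = 0.00019) amounts to at least 5.25-fold. Nefl, the light subunit, read 1781 to 2751 in modiolus and 183 to 413 in stria vascularis (2.73 ± 0.31, 6.64-fold, adjusted p = 0.00016), where it passed background on 1 of 4 arrays, so that the fold rests on a dim denominator. Nefh, the heavy subunit of mature axons, read 392 to 714 in modiolus and 626 to 1127 in stria vascularis, with overlap and on the other side of 0 (-0.52 ± 0.30, adjusted p = 0.23), and after centring it was called higher in stria vascularis (-0.95, adjusted p = 0.048). Nestin, Nes, an intermediate filament of neural progenitors and immature glia, read 16644 and 16429 in normoxic and 14058 and 12363 in hypoxic modiolus, against 1869 to 2310 in stria vascularis (2.86 ± 0.13, 7.26-fold, adjusted p = 8.3e-07). Dimmer second probe sets did not pass for Nefl (1.83 ± 0.67, adjusted p = 0.072) or for Nes (1.38 ± 0.74, adjusted p = 0.19). That of Nefh lay toward modiolus without passing (0.71 ± 0.68, adjusted p = 0.46, and 0.28 after centring). No direction can therefore be given for Nefh.

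Of the 15 measured genes of neuronal cytoskeleton and growth, 5 were higher in modiolus and 3 in stria vascularis, and the median difference of 0.08 lay below that of all genes. After centring 4 were higher in modiolus and 5 in stria vascularis, beside 5.28% and 11.7% of all genes. Map1a, a microtubule protein, was the fifth modiolus gene (0.84 ± 0.19, adjusted p = 0.011) and lost its call by centring. The stria genes as deposited were Nnat, gamma-synuclein (Sncg) and Map2, a dendritic microtubule protein. Sncg read 1594 and 1711 in normoxic and 941 and 261 in hypoxic stria vascularis, against 193 to 372 in modiolus, where it was not above background (-1.53 ± 0.48, adjusted p = 0.042, at least 1.56-fold). The second hypoxic stria array fell within the range of modiolus, and the call was lost when any of 6 single arrays was left out. For Map2 the brightest of 5 probe sets was at -0.75 ± 0.23, whereas another was called in the opposite direction at 1.98 ± 0.50, so that no direction can be given for Map2.

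Of the 22 measured genes of vesicle release, 6 were called higher in modiolus and 0 in stria vascularis, beside 18.5% and 7.5% of all genes, and their median difference was 0.73. At an unadjusted p under 0.05 there were 9 and 1, and after centring 2 remained on the modiolus side while 1 was called in stria vascularis. Syt4, a synaptotagmin of vesicles and dense-core granules, read 6215 and 3836 in normoxic and 5076 and 3247 in hypoxic modiolus, against 200 to 443 in stria vascularis (3.74 ± 0.22, 13.4-fold, adjusted p = 1.5e-06), where it passed background on 1 of 4 arrays. Its second probe set differed by 5.70 ± 0.34, at least 8.21-fold. Nrxn3, a presynaptic adhesion protein, was at 2.04 ± 0.48 (at least 1.38-fold) and lost its call without the second hypoxic stria array (adjusted p = 0.051), and Syn1 and Snap25 of the synaptic vesicle cycle were at 0.88 ± 0.21 and 0.87 ± 0.27, differences that lost their calls by centring. The regions overlapped in Syn1 and in Snap25.

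Of the 10 measured genes of Schwann cells, myelin and glia, 4 were higher in modiolus and 2 in stria vascularis, beside 18.5% and 7.5% of all genes. After centring there were 2 on each side. Mbp, a structural protein of the myelin sheath, read 3934 and 3366 in normoxic and 3595 and 4611 in hypoxic modiolus, against 364 and 303 in normoxic and 250 and 138 in hypoxic stria vascularis. The gap was wide (3.86 ± 0.29, 14.6-fold, adjusted p = 1.2e-05), and Mbp passed background on 1 of the 4 stria arrays. Cnp, another myelin enzyme, read 9401 to 12414 in modiolus and 2914 to 4260 in stria vascularis (1.64 ± 0.13, 3.12-fold, adjusted p = 1.7e-05). Sox10, the transcription factor of Schwann cells and melanocytes, was at 0.87 ± 0.21 and the neurotrophin receptor Ngfr at 0.70 ± 0.18, and both calls were lost by centring. S100b, a calcium-binding protein of Schwann cells and other glia, overlapped between the regions, at 7328 to 8988 in modiolus and 6433 to 8358 in stria vascularis (0.16 ± 0.14, adjusted p = 0.39, and -0.27 after centring). Glutamine synthetase, Glul, and the glutamate transporter Slc1a3 were higher in stria vascularis, at -0.79 ± 0.18 (adjusted p = 0.011) and -0.70 ± 0.18 (adjusted p = 0.022), and the call of Slc1a3 was lost when any of 5 single arrays was left out. The call of Glul was lost with quantile normalization (adjusted p = 0.065) and without the variance trend (adjusted p = 0.056). Of 3 further probe sets of Slc1a3 none passed, and they lay on both sides of 0 (-0.19, 0.57 and -0.79). Its brightest probe set was at -0.36 within repeat 1 and -1.04 within repeat 2. The myelin genes Mag (0.44 ± 0.18) and Mog (0.86 ± 0.44) and the glutamate transporter Slc1a2 (-0.23 ± 0.31) did not pass. The list had a median difference of 0.57 and summed signals that overlapped, at 72171 to 99909 in modiolus and 93702 to 109379 in stria vascularis.

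Neuropeptide genes had the highest median difference of the lists with more than 1 gene, 1.23 beside 0.42 for all genes. Of 11 measured, 6 were higher in modiolus and 1 in stria vascularis, beside 18.5% and 7.5% of all genes. After centring, 5 of the modiolus calls were made too. Somatostatin, Sst, an inhibitory peptide hormone of neurons, read 2495 and 4532 in normoxic and 3130 and 4014 in hypoxic modiolus, and 100 to 171 in stria vascularis, where it was not above background (4.69 ± 0.32, at least 8.19-fold, adjusted p = 5.5e-06). A second probe set of Sst differed by 1.64 ± 0.42, at least 1.63-fold. Penk, the precursor of the enkephalins, read 12102 and 10951 in normoxic and 8941 and 12852 in hypoxic modiolus, against 1703 to 3514 in stria vascularis (2.19 ± 0.19, 4.56-fold, adjusted p = 2.9e-05). For Penk another probe set was at 0.59 ± 0.35 (adjusted p = 0.23). The other modiolus calls, named after their values were seen, were Gal at 2.19, Crh at 1.75, Tac1 at 1.48 and Npy at 1.23, of which Crh passed background on no array and Gal on 1. Cholecystokinin, Cck, went the other way and read 1577 and 1790 in normoxic and 2530 and 1639 in hypoxic stria vascularis, against 276 and 228 in normoxic and 592 and 1318 in hypoxic modiolus (-1.93 ± 0.39, adjusted p = 0.0058).

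Growth factor and cytokine genes included some of the largest differences. Fgf5, a secreted fibroblast growth factor, read 3968 and 6205 in normoxic and 3667 and 3967 in hypoxic modiolus, and 71.0 to 298 in stria vascularis, where it was not above background (4.84 ± 0.35, at least 10.3-fold, adjusted p = 8e-06). Il6, an inflammatory cytokine that neurons and Schwann cells also make after injury, read 6339 and 4842 in normoxic and 3535 and 3343 in hypoxic modiolus, against 873 and 568 in normoxic and 493 and 70.5 in hypoxic stria vascularis (3.49 ± 0.41, 11.3-fold, adjusted p = 0.0002). The second hypoxic stria array was the lowest by far. Il6 passed background on 2 of 4 stria arrays, and its difference was 2.82 within repeat 1 and 4.17 within repeat 2. Lif, a related cytokine, was at 2.22 ± 0.62 (adjusted p = 0.028), lost its call by centring and was nearly equal in the first hypoxic repeats, at 761 in modiolus and 699 in stria vascularis. Its difference was 1.17 within repeat 1 and 3.26 within repeat 2. Of 23 measured genes of the FGF, PDGF, TGF beta and IGF list, 5 were higher in modiolus and 3 in stria vascularis, beside 18.5% and 7.5% of all genes. After centring the split turned, with 1 higher in modiolus and 5 in stria vascularis, beside 5.28% and 11.7% of all genes. The third stria gene as deposited was the receptor Fgfr4, at 7559 to 11722 against 1841 to 3322 (-2.10 ± 0.21, 4.28-fold). Tgfb1, a regulator of matrix and immune cells, was at 1.16 ± 0.24 toward modiolus and lost its call by centring.

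Transcription factors of the AP-1 complex, some of which respond rapidly to injury and growth signals, were split. Jun read 11320 and 12889 in normoxic and 7810 and 11906 in hypoxic modiolus, against 2061 to 3229 in stria vascularis (2.00 ± 0.20, 4.00-fold, adjusted p = 8e-05). Fosl1 read 1727 to 3532 in modiolus and 388 to 820 in stria vascularis (2.34 ± 0.25, 5.05-fold, adjusted p = 0.00012). Jund went the other way, at 576 to 1286 in stria vascularis and 171 to 546 in modiolus (-1.20 ± 0.35, adjusted p = 0.035), a call that leaving out any of 6 single arrays removed. Of the 9 immediate early genes measured, 4 were higher in modiolus and 1 in stria vascularis, beside 18.5% and 7.5% of all genes. After centring there were 2 and 1. Foxd1, a forkhead factor of stromal cells, was at 3.65 ± 0.34 (at least 4.81-fold), but its probe set is of a type that can match several genes of a family, so that the member it reads is uncertain.

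The remaining leading genes of modiolus were Ntm, a neural adhesion protein, and Pcp4, a calmodulin-binding peptide of neurons. Ntm read 1106 to 1686 in modiolus and 43.2 to 230 in stria vascularis (3.47 ± 0.46, at least 3.11-fold), and Pcp4 read 872 to 1938 against 39.2 to 500 (2.77 ± 0.43, at least 2.89-fold). Within repeats 1 and 2 the differences were 2.94 and 4.00 for Ntm, and 2.13 and 3.41 for Pcp4. Ntm and Lsamp belong to the same family of adhesion proteins and stood on opposite sides. Vimentin, Vim, a filament of fibroblasts, glia and other mesenchymal cells, was at 1.33 ± 0.16 toward modiolus (adjusted p = 0.0002) at 108703 to 132316 against 36300 to 64493, beside a fibroblast and matrix list of which 3 of 22 genes were measured. The fibroblast receptor Pdgfra was at 0.44 ± 0.11, close to the median difference of all genes, and at 0.01 after centring, while its other 4 probe sets were at 0.76 to 1.27.

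Receptors and channels of neurons, which make up much of this array, gave few calls that did not rest on the general shift. Counts here stand beside 18.5% of all genes higher in modiolus and 7.5% higher in stria vascularis, or 5.28% and 11.7% after centring. Of 34 genes of GABA, glycine and acetylcholine receptors, 0 were called by limma in either direction as deposited or after centring, 9 were higher in modiolus at an unadjusted p under 0.05 as deposited, and their median difference was 0.63. This count takes the brightest probe set of each gene, and of all 53 probe sets of these genes 2 were called higher in modiolus. Of 23 glutamate receptors, 2 were higher in modiolus, Grin2a of the NMDA type (1.07 ± 0.22) and Grik3 of the kainate type (1.24 ± 0.34), and centring left 0 there and 1 in stria vascularis. A dimmer probe set of Grin2a did not pass (0.39 ± 0.51, adjusted p = 0.58). Of 33 genes of monoamine signalling, 12 were higher in modiolus and 0 in stria vascularis as deposited, but centring left 2 and 1. The vesicular transporter Slc18a2, which loads monoamines into vesicles, was 1 of those that kept the call, at 1494 to 2232 in modiolus and 331 to 636 in stria vascularis (1.94 ± 0.29, 3.84-fold, adjusted p = 0.0011), with 2 of 4 stria arrays above background. Of 10 sodium channels 2 were higher in modiolus, Scn11a of sensory neurons (1.95 ± 0.55, at least 1.45-fold) and Scn4a (1.22 ± 0.33), and both lost the call by centring. A second probe set of Scn4a, not above background in either region, was at -0.04 ± 0.60 (adjusted p = 0.97). Of 10 calcium channels 3 were higher in stria vascularis, with the beta subunit Cacnb2 at -1.91 ± 0.43 (at least 1.11-fold) and the alpha2delta subunit Cacna2d1 at -1.02 ± 0.28 (at least 1.76-fold), a call lost when any of 5 single arrays was left out. Among 11 genes of neurotrophin and GDNF signalling 4 were higher in modiolus, led by Lif and by the receptor Ntrk3 (1.57 ± 0.40, at least 1.22-fold), and centring left 0.

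**Figure D3:**
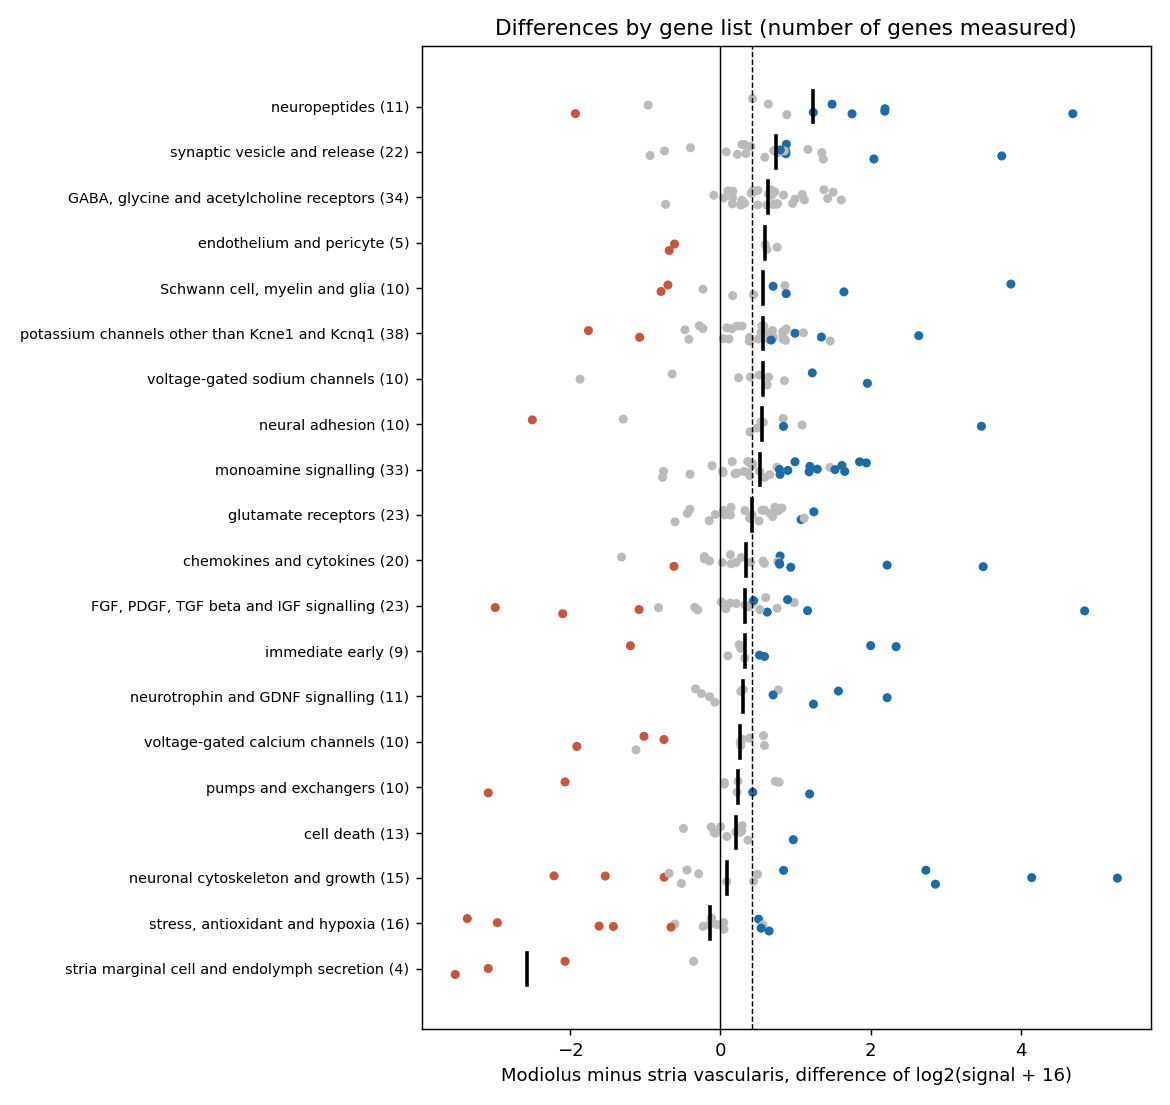
Difference of log2(signal + 16), modiolus minus stria vascularis, for each gene of the lists with at least 4 measured genes (numbers in brackets), with calls toward modiolus in blue, calls toward stria vascularis in red and other genes in grey. Black bars are list medians and the dashed line is the median of all 720 genes at 0.42, and the marginal cell list at -2.58 and the neuropeptides at 1.23 lie farthest from it. After centring, 12 monoamine calls became 2.

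Cultured organ of Corti, the sensory epithelium of the cochlea, was set beside them in a fit of all 12 cultured arrays, where 225 genes (31.2%) differed from modiolus and 125 (17.4%) from stria vascularis. These comparisons share their arrays, so that values are given side by side. The median signal of an array was 743 to 807 in organ of Corti, against 728 to 939 in modiolus and 555 to 662 in stria vascularis. This fit was not repeated on centred arrays, so that its differences from stria vascularis hold a shift between arrays too. The second repeats of organ of Corti were scanned on different days. Gap43 had a geometric mean of 23340 in modiolus, 2301 in organ of Corti and 585 in stria vascularis, and organ of Corti differed from both (-3.33 ± 0.15 from modiolus, adjusted p = 1.1e-08, and 1.95 ± 0.15 from stria vascularis, adjusted p = 2.6e-06). Syt4 (4453, 1065 and 318 in the same order) and Mbp (3849, 1598 and 250) followed that order, and each step passed the test. Fgf5 and Il6 were low in organ of Corti, at 328 and 251, and there organ of Corti and stria vascularis did not differ beyond error (adjusted p = 0.16 and 0.57).

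The neurofilaments took another order. Nefm had a geometric mean of 6777 in organ of Corti, 2206 in modiolus and 110 in stria vascularis, and organ of Corti was above modiolus by 1.61 ± 0.40 (adjusted p = 0.0088). Nefl stood at 4542, 2293 and 332, and its difference between organ of Corti and modiolus was 0.98 ± 0.33 (adjusted p = 0.043). Nefh (5160, 533 and 770) and Sncg (7105, 304 and 910) were higher in organ of Corti than in modiolus by 3.24 ± 0.29 and 4.47 ± 0.38. Dimmer second probe sets lay on the same side without passing, for Nefh at 1.17 ± 0.60 (adjusted p = 0.17) and for Nefl at 1.64 ± 0.69 (adjusted p = 0.096). By their brightest probe sets, modiolus was thus not the region with the highest signals of these genes in these cultures. Of 15 hair cell and supporting cell genes 1 was measured, the acetylcholine receptor subunit Chrna9, at a geometric mean of 823 in organ of Corti, 439 in modiolus and 134 in stria vascularis.

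Several leading genes of stria vascularis were as high or higher in organ of Corti. Atp1b1 had a geometric mean of 77983 there, against 43463 in stria vascularis (0.84 ± 0.11, adjusted p = 0.00018), S100a1 24998 against 9612 (1.38 ± 0.11), and Mt3 6488 against 6036 (0.10 ± 0.23, adjusted p = 0.85). Kcne1 had a geometric mean of 1132 in organ of Corti, 941 in modiolus and 11021 in stria vascularis, and organ of Corti differed from stria vascularis by -3.27 ± 0.20 (adjusted p = 6.7e-07) and from modiolus by 0.26 ± 0.20 (adjusted p = 0.37). Atp1b2 (3009, against 8423 in stria vascularis), Enpp2 (4490) and C3 (5105) were also lower in organ of Corti than in stria vascularis, by 1.48, 1.38 and 1.93 on the log2 scale.

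**Figure D4:**
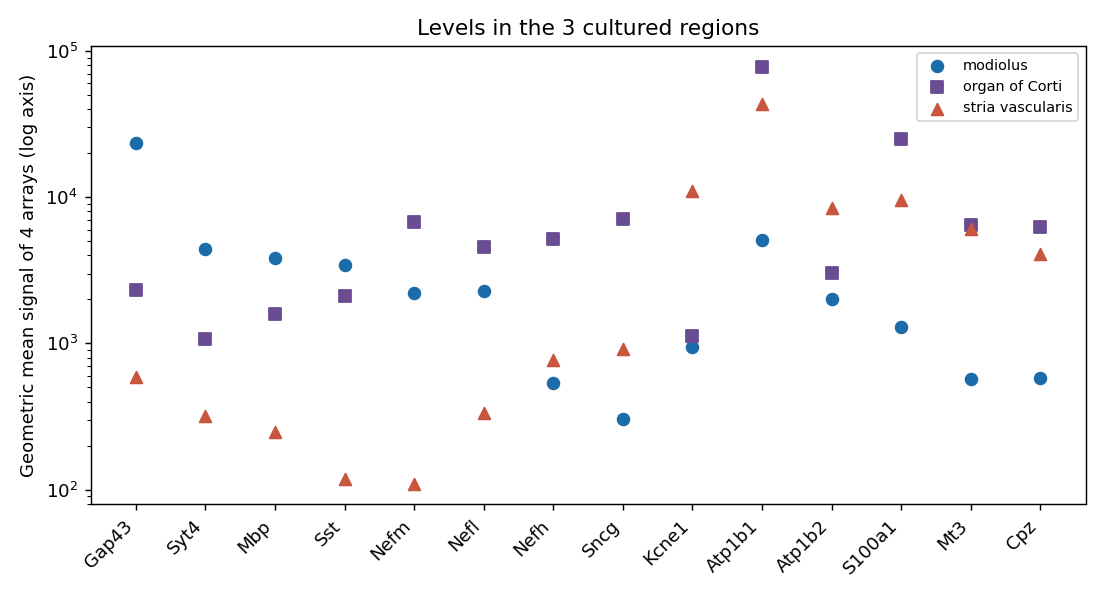
Geometric mean signal of the 4 cultured arrays of each region (log axis) for 14 genes. Gap43, Syt4 and Mbp step down from modiolus to organ of Corti to stria vascularis, the neurofilaments and Sncg are highest in organ of Corti, and Kcne1 is high in stria vascularis with organ of Corti near modiolus.

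The region by oxygen term asked whether the difference between modiolus and stria vascularis itself differed between normoxic and hypoxic cultures. By limma 0 of 1263 probe sets (0%) passed, with a smallest adjusted p of 0.61, while 99 (7.84%) had an unadjusted p under 0.05. The oxygen term shared by both regions also gave 0 calls, with a smallest adjusted p of 0.29 and 82 probe sets at an unadjusted p under 0.05. Over the 24 leading genes the region by oxygen term ran from -1.47 for Nnat to 1.60 for Ntm, and it was -1.08 for Pcp4 and 1.09 for Il6, none of which passed. For Gap43 the region difference was 5.26 in normoxia and 5.30 in hypoxia. Atp1b1 gave -2.99 and -3.19, and Mbp 3.39 and 4.34, the latter without passing the test of the difference (0.94 ± 0.50, adjusted p = 0.66). With 2 arrays per group these intervals are wide, and a missed threshold does not show that the regions responded alike.

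The 5 genes with the smallest p of that term are given as descriptions, since none passed. Prnp, the prion protein of neurons and other cells, read 15861 and 17396 in normoxic and 17545 and 17458 in hypoxic modiolus, against 9077 and 9991 in normoxic and 4423 and 5180 in hypoxic stria vascularis (1.07 ± 0.21, adjusted p = 0.61). Its signal in stria vascularis was thus lower in both hypoxic pools while modiolus stayed within a narrow range. Gsta1, a glutathione transferase, read 20378 and 18716 in normoxic and 8291 and 7412 in hypoxic stria vascularis, and 11224 and 12189 in normoxic and 10117 and 8910 in hypoxic modiolus (1.01 ± 0.22). Its modiolus signals were also lower in hypoxia, its other probe set gave 0.37 ± 0.34, and both probe sets are of the type that can match several genes of a family. Irf1, an interferon-regulated transcription factor, read 21076 and 17684 in normoxic and 14120 and 11583 in hypoxic stria vascularis, and 5640 to 8783 in modiolus (0.90 ± 0.22). A second probe set of Irf1 had a term of the opposite sign (-0.29 ± 0.33). The chemokine Ccl5 read 1710 and 680 in normoxic and 134 and 96.4 in hypoxic stria vascularis and was not above background in modiolus, and the dopamine receptor Drd4 read 687 and 1004 against 297 and 210 in stria vascularis and 236 and 550 against 1032 and 953 in modiolus. In the probe sets named for these 5 genes both hypoxic stria arrays lay below both normoxic ones. This separation follows in part from the choice by smallest p on the same arrays. Its share over all genes was not counted, so that it shows no common response.

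**Figure D5:**
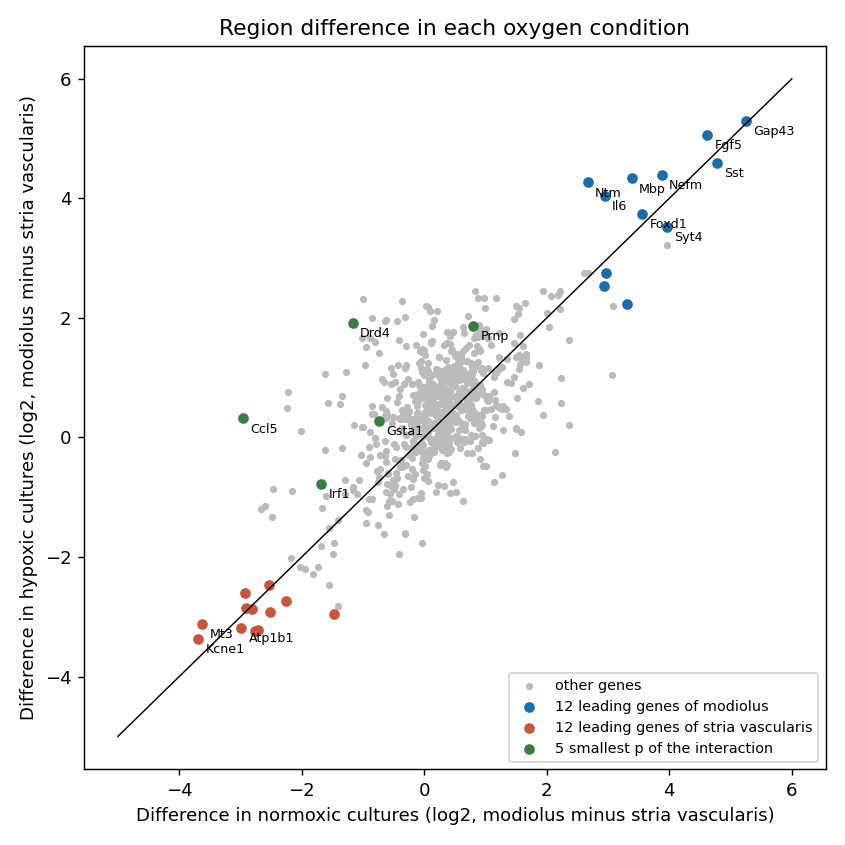
Region difference of log2(signal + 16) in hypoxic cultures (vertical axis) against normoxic cultures (horizontal axis) for 720 genes, with the line of equality. The 12 leading genes of each region keep their side in both conditions, with Ntm, Nnat, Il6 and Pcp4 more than 1 unit off the line, and the 5 genes with the smallest p of the region by oxygen term are in green, none of which passed the adjusted threshold.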

How the data were processed

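Signals of 1322 probe sets came from the table of values deposited by the authors. As deposited, they are intensities on a linear scale that had been scaled on each array to a 2% trimmed mean of 2500, as found from the values. The software behind them was not given in the sources used here. The other deposited files are records of the hybridisation and scanner runs, and they were read only for scan days.

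The 8 cultured arrays of both regions were used as log2(signal + 16). After 59 controls were left out, 1263 probe sets were fitted in limma 3.58.1 (R 4.3.3) with region, oxygen condition and repeat as terms and a variance trend, two-sided, with Benjamini-Hochberg adjustment and a threshold of 0.05. The oxygen question added the product of region and oxygen, and organ of Corti a fit of 12 cultured arrays. Errors are standard errors of the model. Nothing says that the pools were separate litters, so that p-values measure the spread between these pools, which may be technical. Precision is limited by having 4 arrays per region.

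Of the probe sets, 1137 carried 1 gene symbol, 8 several and 118 none, and for 1132 the gene number was found in the RefSeq gene table. They gave 720 genes, of which 276 had more than 1 probe set, and for 2 (Atp2b2 and Map2) probe sets were called in opposite directions. Named were the 12 largest differences each way above background, up to 2 called genes each way of every list, a fixed set of marker genes and the 5 smallest p of the region by oxygen term, 73 genes in all. Some genes of that set are not reported here. Members and lists were chosen with earlier results of these data known, so that lists are described by counts and medians alone. The repeat was kept as a term because the comparison was defined so. Differences between repeats correlated between groups at r = -0.01 to 0.22 over 6 pairs, 3 of them over 0.1. These correlations were low, while the repeat held 11.1% of the sum of squares. Whether the repeat numbers paired the samples is therefore not settled by the data. Promoter sequences were taken from RefSeq (GRCr8). Alternatives were other pseudocounts, scalings, filters and variance models, no repeat term, all 12 cultured arrays, single conditions or repeats, and leaving out each array.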

Additional observations from a re-analysis of the deposited data

How the results depend on the processing

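Scaling decided how the calls were divided. With quantile normalization 123 probe sets were higher in modiolus and 129 in stria vascularis, and with each array centred on its median 64 were higher in modiolus and 157 in stria vascularis, against 217 and 104 as deposited. The cause of the shift between the arrays was not tested. When each array was left out in turn, 192 to 282 probe sets passed, 111 to 184 higher in modiolus and 81 to 99 higher in stria vascularis, and the region by oxygen term gave 0 to 3 calls. The 3 calls came without the second hypoxic modiolus array (Rara at -3.54, Rarb at -2.85 and Cited2 at -2.23, adjusted p = 0.015 to 0.032), and that fit had 127 calls higher in modiolus. Of the fits of 4 arrays, normoxic arrays alone gave 60 (22 higher in modiolus and 38 in stria vascularis), hypoxic arrays alone 66 (24 and 42), repeat 1 alone 51 (19 and 32), and repeat 2 alone 221 (138 and 83). Without the repeat as a replicate block, 284 probe sets passed, 188 higher in modiolus and 96 in stria vascularis, and the region by oxygen term gave 0. The full comparison had 17 alternatives. Of the 67 named genes that passed, 42 kept the call under every alternative that tested them, 25 lost it under at least 1 and 0 reversed. Among the 42, Kcnn3 was tested under 16, since it dropped out where dim probe sets were left out. All 67 kept their direction in the fits of single conditions and repeats. Those fits reuse the arrays on which the 67 were called, so that this follows largely from the choice and is no independent check. Of the named genes that did not pass, Nefh (-0.96 with quantile normalization) and Gsta1 (-0.66 with centring) then passed. Signals near background limit what can be said of Kcnq1, Crh and Itgam.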

Other observations

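A few genes outside the groups described above also differed between the cultured regions. The prion protein gene Prnp was higher in modiolus over both oxygen conditions, with a log2 difference of 1.33 ± 0.21 (SE) and an adjusted p of 0.0014, and kept its call after centring (0.91, adjusted p = 0.0065). Ccl2, which attracts monocytes, read 57223 to 91232 in modiolus and 24969 to 46296 in stria vascularis (0.94 ± 0.19, adjusted p = 0.0068), and this call was lost by centring (adjusted p = 0.11). It was named after its values were seen. The cell death gene Bcl2l11, the 1 of 13 genes of its list that passed by its brightest probe set, read 1855 to 2901 in modiolus and 813 to 1520 in stria vascularis (0.97 ± 0.23, adjusted p = 0.013), with other probe sets at -0.55 to 0.73 and no call after centring. Among the dimmer probe sets of that list, 1 of Bax (0.64) was called toward modiolus and 2 of Hrk (-1.60 and -1.80) toward stria vascularis. Gja1, a gap junction protein, was at 0.86 ± 0.28 toward modiolus (adjusted p = 0.047) and lost its call by centring and when any of 7 single arrays was left out.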
